A study of Mus musculus with 13 samples.

Results

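Bile acid synthesis and hepatobiliary transport were followed through 10 genes chosen by symbol, out of 27141 genes listed, in cultured damaged hepatocytes (dHeps). All 10 symbols were found once in the tables of counts and of FPKM (fragments counted per length of the gene and per total of the library), and all 10 passed the filter on low counts. dHeps were hepatocytes of wild-type mice (C57BL/6 background in the study's methods) whose livers had been chronically injured with carbon tetrachloride (CCl4), isolated by collagenase perfusion and kept for 16 days in a serum-free maintenance medium, so that injury and culture were shared by every group. The control was the solvent dimethyl sulfoxide (DMSO). The 5C group received GSK429286A (G, a ROCK inhibitor), CID755673 (C, a protein kinase D inhibitor), ETC-1002 (E, an AMPK activator), Salidroside (S, a plant glycoside) and forskolin (F, an activator of adenylate cyclase), and the groups 5C-G, 5C-C, 5C-E, 5C-F and 5C-S lacked the compound named by the letter. There were 13 libraries in 7 groups, with 2 libraries in each of 6 groups and 1 library for 5C-S, and total counts ran from 30195867 to 45491932. The labels give neither the age nor the number of the mice, and the study's methods describe its replicates as biological and separate, without saying whether they were other mice or other cultures. Within a group the libraries are named A and B by their order in the tables. These letters do not link libraries of different groups, and whether such libraries were paired is not given.

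Hepatocytes make bile acids from cholesterol, by a classical route that Cyp7a1 opens and an alternative route that Cyp27a1 opens, and conjugate them before secretion. Conjugated bile acids leave the cell into the bile canaliculus through the bile salt export pump Abcb11 and the multidrug resistance-associated protein Abcc2, and return from portal blood through the sodium-dependent carrier Slc10a1 (NTCP) and the organic anion transporter Slco1b2. Bile acids bind the nuclear receptor FXR (Nr1h4), which in liver induces Abcb11 and the corepressor SHP (Nr0b2), and SHP in turn is known to restrain Cyp7a1 and Cyp8b1.

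The comparisons asked which of these genes the 5C cocktail changed and which changes were missing when a compound was left out. A gene was called when its Benjamini-Hochberg adjusted p in edgeR's quasi-likelihood test, over the 19884 genes tested, was under 0.05 and its log2 fold change was beyond 1. Against DMSO, 5C had 2 of the 10 genes called, both higher (Abcb11 and Slco1b2), where 1.66% of all tested genes were called higher and 2.89% lower. Without GSK429286A, 5 of the 10 were lower than in 5C, with 5.64% of all genes called lower and 7.47% higher. Without CID755673, 5 were lower and 1 was higher, with 10.5% of all genes called lower and 9.65% higher. Without ETC-1002, 4 were lower, with 1.31% of all genes called lower. Without forskolin, 1 was lower, with 2.15% of all genes called lower and 2.69% higher. The comparisons of removals with 5C share the 5C libraries. In bulk RNA, fewer hepatocytes and less RNA of a gene per hepatocyte cannot be told apart.

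**Figure D1:**
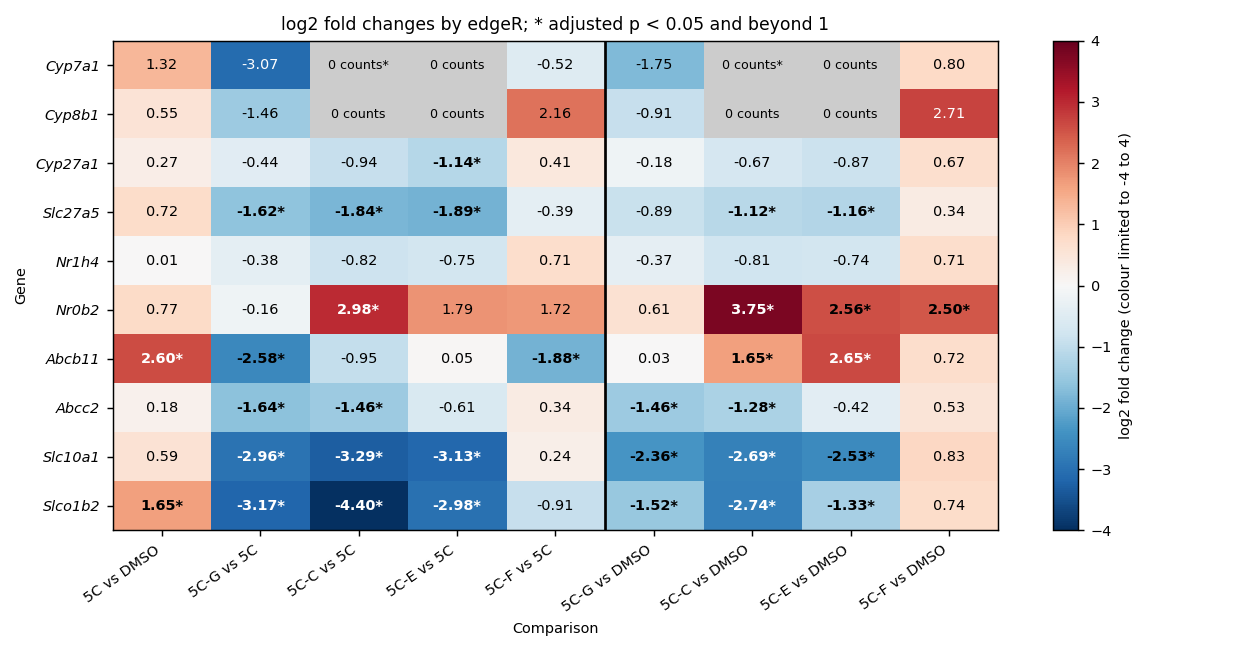
Heat map of log2 fold changes of the 10 genes (rows) in 9 comparisons (columns); colour runs from blue (lower) to red (higher), an asterisk marks a call, and grey cells mark a group with 0 counts in both libraries, for which no fold is drawn. Slc10a1 and Slco1b2 were called lower in the 3 comparisons of 5C-G, 5C-C and 5C-E with 5C, while Abcb11 was called lower without GSK429286A and without forskolin.

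The promoters of the 4 transporters and of Nr0b2 are shown because these genes carry most of the calls and moved in different ways. They come from RefSeq on GRCm38.p6, 250 bases before to 50 bases after the annotated start, written 5′ to 3′ on the strand of the gene. Of the 10 genes, 8 had a promoter entry (all but Cyp7a1 and Slc27a5), and Slc10a1 had 2 starts. Capitals mark matches on either strand to the nuclear receptor core motif AGGTCA (read as TGACCT on the other strand).
Abcb11 (chr2:69342567-69342866, minus strand): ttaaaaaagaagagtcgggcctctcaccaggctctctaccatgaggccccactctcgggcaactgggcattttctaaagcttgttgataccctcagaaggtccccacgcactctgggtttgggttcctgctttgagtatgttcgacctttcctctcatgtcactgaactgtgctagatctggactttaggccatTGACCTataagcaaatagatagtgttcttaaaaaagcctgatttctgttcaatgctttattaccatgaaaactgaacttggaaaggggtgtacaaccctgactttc
Abcc2 (chr19:43782058-43782357, plus strand): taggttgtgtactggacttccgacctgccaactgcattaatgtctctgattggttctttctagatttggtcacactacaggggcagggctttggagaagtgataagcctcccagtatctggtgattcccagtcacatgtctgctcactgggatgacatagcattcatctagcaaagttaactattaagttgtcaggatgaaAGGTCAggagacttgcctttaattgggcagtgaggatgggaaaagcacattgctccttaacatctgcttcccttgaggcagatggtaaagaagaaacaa
Slc10a1, first start (chr12:80968656-80968955, minus strand): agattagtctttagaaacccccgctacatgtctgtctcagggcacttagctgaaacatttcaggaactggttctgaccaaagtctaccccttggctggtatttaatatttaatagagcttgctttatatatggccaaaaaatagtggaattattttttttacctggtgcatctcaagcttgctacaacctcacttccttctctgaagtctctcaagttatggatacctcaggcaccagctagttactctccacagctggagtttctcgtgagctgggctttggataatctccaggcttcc
Slc10a1, other start (chr12:80968030-80968329, minus strand): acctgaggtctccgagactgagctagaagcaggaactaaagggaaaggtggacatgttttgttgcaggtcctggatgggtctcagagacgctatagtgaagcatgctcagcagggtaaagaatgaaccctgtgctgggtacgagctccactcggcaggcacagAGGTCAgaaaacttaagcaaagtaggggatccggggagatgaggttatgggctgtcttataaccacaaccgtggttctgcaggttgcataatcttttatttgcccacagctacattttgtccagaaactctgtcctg
Slco1b2 (chr6:141629268-141629567, plus strand): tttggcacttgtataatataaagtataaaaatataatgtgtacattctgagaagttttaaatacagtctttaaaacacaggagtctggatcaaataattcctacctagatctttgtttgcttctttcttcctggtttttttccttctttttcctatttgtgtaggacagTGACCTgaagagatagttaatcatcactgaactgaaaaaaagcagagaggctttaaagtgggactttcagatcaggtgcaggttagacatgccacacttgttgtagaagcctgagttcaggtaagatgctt
Nr0b2 (chr4:133553126-133553425, plus strand): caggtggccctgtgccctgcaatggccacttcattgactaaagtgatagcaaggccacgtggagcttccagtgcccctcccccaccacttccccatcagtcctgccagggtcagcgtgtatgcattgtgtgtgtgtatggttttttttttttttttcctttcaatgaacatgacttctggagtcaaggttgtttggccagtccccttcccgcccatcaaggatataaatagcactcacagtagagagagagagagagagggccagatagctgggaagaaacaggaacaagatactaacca

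The core motif AGGTCA was found in 5 of the 9 entries and in 16.3% of all 32851 promoters of the same length. It began 56 bases upstream of the start in Abcb11, 49 in Abcc2, 87 at the other start of Slc10a1, 81 in Slco1b2 and 214 in Nr1h4. The longer motifs had no match in the 9 entries: the inverted repeat IR-1 of the core motif (0.00913% of all promoters), the direct repeat DR-1 (0.0396%), the LRH-1 motif TCAAGGTCA (0.423%), the FOXA motif TGTTTAC (3.65%) and the cAMP response element TGACGTCA (1.79%). Both strands were searched with exact letters, so near matches were not counted, and the core motif also lies within the repeats and the LRH-1 motif. At its marked site Abcb11 reads aggccatTGACCT, which has a C where IR-1 (AGGTCA, any letter, TGACCT) has a T. A match is a description of the letters only.

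Among the enzymes, the genes of the classical route had low counts in every group, up to 58 in a library. Cyp7a1 (ENSMUSG00000028240, GRCm39 chr4:6265612-6275633), the rate-limiting enzyme of the classical route, had counts of 28 and 2 in DMSO, 36 and 35 in 5C, 8 and 0 in 5C-G, 42 and 14 in 5C-F and 24 in 5C-S, and 0 in all 4 libraries of 5C-C and 5C-E. Its highest FPKM in any library was 0.273. Against the floor of 3 counts per library, the level of Cyp7a1 in 5C-C was at least 12-fold lower than in 5C, which was called (adjusted p = 0.012), and at least 13.3-fold lower in 5C-E than in 5C, which was not (adjusted p = 0.075). The difference in 5C-E was called with no filter on low counts (adjusted p = 0.0019), with only the 2 groups compared (adjusted p = 0.0043) and with scaling to secreted plasma proteins (adjusted p = 0.014). The call in 5C-C was lost without 5C-C library B (adjusted p = 0.074) and with limma on log2(FPKM + 1), at -0.34. Against 5C, the difference in 5C-G was not called, but it was without 5C-G library A (adjusted p = 0.045) and with limma on log2(FPKM + 0.1) (adjusted p = 0.047). The DMSO and 5C libraries did not overlap, but the log2 fold change of 1.32 had a standard error (SE) of 1.42 and was not called (adjusted p = 0.72).

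Cyp8b1 (ENSMUSG00000050445, chr9:121743422-121745371), which adds the hydroxyl group that makes cholic acid, had counts of 8 and 4 in DMSO, 16 and 2 in 5C, 0 and 6 in 5C-G and 35 and 58 in 5C-F, and 0 in both libraries of 5C-C and 5C-E and in 5C-S. The 5C-F libraries were the highest of all 13, at 0.464 and 0.708 FPKM, and did not overlap with those of 5C, yet the log2 fold change of 2.16 ± 1.59 (SE) was not called (adjusted p = 0.42). In 5C-C, Cyp8b1 was at least 2.91-fold lower than in 5C, a bound that rests on the 5C library with 16 counts, and this was not called (adjusted p = 0.059), although it was with DESeq2 (adjusted p = 0.041) and with no filter on low counts (adjusted p = 0.034). Values after ± are SEs of the fit throughout.

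Cyp27a1 (ENSMUSG00000026170, chr1:74752314-74777056), the mitochondrial sterol 27-hydroxylase of the alternative route, was the most abundant of the 10 genes by mean FPKM in each of the 7 groups. It stood at 17.8 and 16.5 FPKM in DMSO, 22.9 and 20.5 in 5C, 13.7 and 15.3 in 5C-G, 9.41 and 10.8 in 5C-C, 9.99 and 10.7 in 5C-E, 24.2 and 29.7 in 5C-F and 17.3 in 5C-S. The 5C libraries lay above those of DMSO, 5C-G, 5C-C and 5C-E and below those of 5C-F. It was called lower in 5C-E than in 5C (log2 fold change -1.14 ± 0.19, adjusted p = 0.002), and in 5C-C it passed the adjusted p (0.0011) but not the fold (-0.94 ± 0.19). The latter difference was called in 5 alternatives, with total counts (-1.10), limma on log2(FPKM + 1) (-1.04) or log2(FPKM + 0.1) (-1.10), the offset for GC content and length (-1.33) and without 5C-C library B (-1.07). The call in 5C-E was lost with limma on log2(FPKM + 1), at -1.0, and disappeared with scaling to secreted plasma proteins, at 0.01. Cyp27a1 overlaps Prkag3 on the other strand, and how the authors' counting used strand is not given in the sources used here.

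Slc27a5 (ENSMUSG00000030382, chr7:12722273-12732137), the bile acid-CoA ligase that starts conjugation, stood at 7.90 and 9.37 FPKM in DMSO, 15 and 15 in 5C, 5.6 and 3.44 in 5C-G, 4.23 and 3.28 in 5C-C, 4.10 and 4.42 in 5C-E, 11.4 and 9.96 in 5C-F and 8.38 in 5C-S. Both 5C libraries were above all others, and all 6 libraries without GSK429286A, CID755673 or ETC-1002 were below both DMSO libraries. The difference between 5C and DMSO was not called (0.72 ± 0.23, adjusted p = 0.071). Slc27a5 fell against 5C in 5C-G (-1.62 ± 0.23, adjusted p = 0.00011), in 5C-C (-1.84 ± 0.23, adjusted p = 4.3e-05) and in 5C-E (-1.89 ± 0.23, adjusted p = 0.00012). Scaled to secreted plasma proteins, these differences were -0.95 in 5C-G and -0.74 in 5C-E, below the fold threshold.

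**Figure D2:**
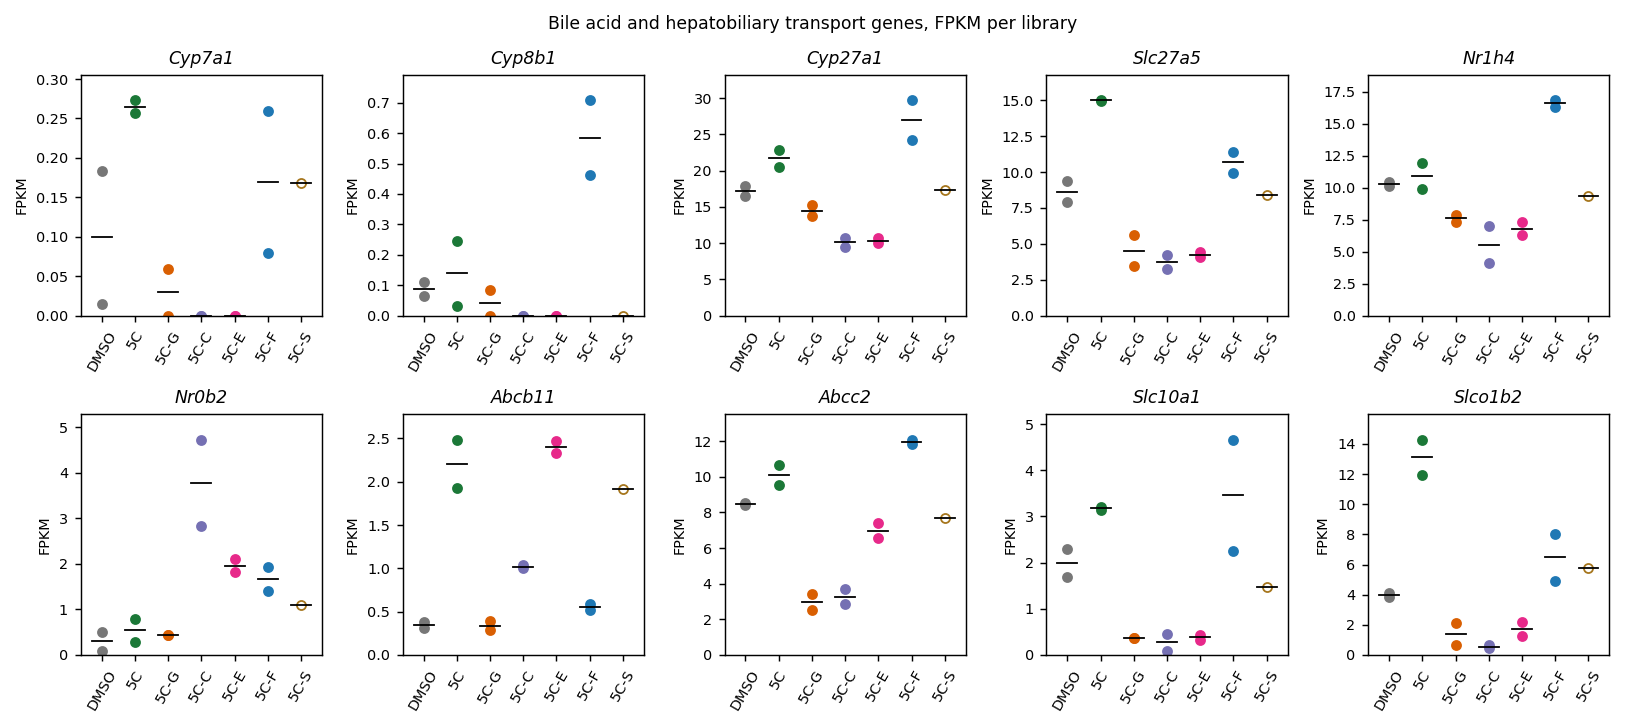
FPKM of each of the 10 genes (panels, linear axes from 0) by group; each point is a library, the bar is the group mean, and the open circle is the single 5C-S library. Both 5C libraries were the highest for Slc27a5 (15 and 15) and Slco1b2 (14.3 and 11.9), and Nr0b2 was highest in 5C-C (2.83 and 4.73).

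Of 15 other measured bile acid enzymes, all tested, 5C had 3 called higher than DMSO, and the list's median log2 fold change was 0.41 beside 0.01 over all tested genes. They were Cyp7b1, the oxysterol 7-hydroxylase of the alternative route (1.64 ± 0.29, adjusted p = 0.0012), Akr1d1, the 5-beta reductase (1.49 ± 0.42, adjusted p = 0.042), and Baat, which joins bile acids to glycine or taurine (1.29 ± 0.28, adjusted p = 0.008). Against 5C, 5C-G had 7 of the 15 called lower, 5C-C had 5, 5C-E had 3 and 5C-F had 1. Akr1d1 fell in 5C-G (-2.90 ± 0.45, adjusted p = 0.00025) and in 5C-F (-1.83 ± 0.43, adjusted p = 0.014). Akr1c6, of the aldo-keto reductase family, was at 6.96 and 7.22 FPKM in 5C at its lowest and highest, at 0.244 and 0.453 in 5C-C and at 0.286 and 0.297 in 5C-E, and fell in 5C-C (-4.13 ± 0.34, adjusted p = 1.2e-06) and in 5C-E (-4.66 ± 0.36, adjusted p = 1.4e-06). Akr1c6 lies in a family of similar genes between which the counting could split reads.

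Among the regulators, the corepressor Nr0b2 was called in some comparisons and the receptor Nr1h4 in none of the 9. Nr1h4 (ENSMUSG00000047638, chr10:89289742-89369497), the bile acid receptor FXR, stood at 10.1 and 10.4 FPKM in DMSO, 11.9 and 9.91 in 5C, 7.91 and 7.36 in 5C-G, 6.97 and 4.12 in 5C-C, 7.32 and 6.30 in 5C-E, 16.4 and 16.8 in 5C-F and 9.36 in 5C-S. DMSO and 5C overlapped (0.01 ± 0.22, adjusted p = 1). No comparison with 5C was called: 5C-C passed the adjusted p (0.0094) but not the fold (-0.82 ± 0.23) and was called without 5C-C library A (-1.19, adjusted p = 0.0012) and with limma on log2(FPKM + 0.1) (-1.003, adjusted p = 0.0072), and 5C-F, whose libraries were the highest of all 13, was at 0.71 ± 0.22 (adjusted p = 0.053).

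Nr0b2 (ENSMUSG00000037583, chr4:133280678-133283847), the corepressor SHP, stood at 0.0966 and 0.510 FPKM in DMSO, 0.790 and 0.288 in 5C, 0.439 and 0.435 in 5C-G, 2.83 and 4.73 in 5C-C, 1.82 and 2.11 in 5C-E, 1.41 and 1.93 in 5C-F and 1.09 in 5C-S. All libraries of 5C-C, 5C-E and 5C-F lay above all libraries of DMSO, 5C and 5C-G. Counts were low, from 4 in a DMSO library to 244 in a 5C-C library. Nr0b2 rose against 5C in 5C-C (2.98 ± 0.68, adjusted p = 0.0026) and was the only one of the 10 genes called higher than in 5C in any of the replicated removals. It was not called in 5C-E (1.79 ± 0.66, adjusted p = 0.19) or in 5C-F (1.72 ± 0.66, adjusted p = 0.10), but scaled to secreted plasma proteins it was called in 5C-E (2.95, adjusted p = 0.0011).

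Against DMSO, Nr0b2 was called higher in 5C-C (3.75 ± 0.72, adjusted p = 0.00062), in 5C-E (2.56 ± 0.70, adjusted p = 0.026) and in 5C-F (2.50 ± 0.70, adjusted p = 0.024). The calls in 5C-E and 5C-F were lost without DMSO library A, at 1.83 (adjusted p = 0.29) and 1.75 (adjusted p = 0.23), and without either removal library, at adjusted p from 0.052 to 0.13, where the values stayed close to those of all libraries (2.71 and 2.45 in 5C-E, 2.67 and 2.30 in 5C-F). That in 5C-F was also lost with only the 2 groups compared (2.51, adjusted p = 0.060) and with scaling to secreted plasma proteins (1.72, adjusted p = 0.053). Without DMSO library B, which left the library with 4 counts, the value for 5C-C was 5.35, that for 5C-E 4.16 and that for 5C-F 4.09. The call in 5C-C held in all alternatives tried that kept the gene, from 1.86 to 5.35 against DMSO and from 1.63 to 3.86 against 5C, the last without 5C library A. The ratio of Nr0b2 to Nr1h4 in FPKM was 0.406 and 1.15 in 5C-C, 0.249 and 0.335 in 5C-E, and between 0.00954 and 0.116 in the libraries of the other groups, so that the 4 libraries without CID755673 or ETC-1002 stood above the rest.

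Of 13 other measured regulators, 12 were tested. In 5C against DMSO, edgeR called 0 of them, DESeq2 called 0, and 2 were higher and 2 lower at an unadjusted p under 0.05. Against 5C, 5C-G had 5 called lower, 5C-C had 3 and 5C-E had 1. In 5C-G these included Ppargc1a, a coactivator of nuclear receptors (-2.46 ± 0.51, adjusted p = 0.0022), Prox1, a hepatocyte transcription factor (-2.28 ± 0.26, adjusted p = 1.2e-05), Nr5a2 or LRH-1, a receptor that activates bile acid enzyme genes (-1.85 ± 0.23, adjusted p = 3.3e-05), and Nr1i2, the xenobiotic receptor PXR (-1.32 ± 0.24, adjusted p = 0.00095). Ppargc1a, Prox1 and Nr5a2 were also the 3 called in 5C-C, at -2.06, -2.02 and -1.01, and Prox1 was the 1 called in 5C-E, at -1.0. DESeq2 called 2 lower in 5C-C and 0 in 5C-E, where edgeR had 2 lower at an unadjusted p under 0.05. In 5C-F, 2 were higher than in 5C, Fgfr4, the hepatocyte receptor of the intestinal signal that lowers bile acid synthesis (1.55 ± 0.26, adjusted p = 0.0018), and Nr1h3, the oxysterol receptor LXR-alpha (1.31 ± 0.23, adjusted p = 0.0024).

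Of the canalicular exporters, Abcb11 differed most between 5C and DMSO. Abcb11 (ENSMUSG00000027048, chr2:69068544-69173315) stood at 0.377 and 0.312 FPKM in DMSO, 1.93 and 2.49 in 5C, 0.393 and 0.287 in 5C-G, 1.03 and 1.00 in 5C-C, 2.47 and 2.33 in 5C-E, 0.592 and 0.523 in 5C-F and 1.92 in 5C-S. The 5C, 5C-E and 5C-S libraries lay at 1.92 or above, and the DMSO, 5C-G and 5C-F libraries at 0.592 or below. It rose from DMSO to 5C by 2.6 ± 0.31 on the log2 scale (adjusted p = 2.2e-05), the largest change with a call among the 10 genes in that comparison, and this call held in all 13 alternatives, from 1.25 with limma on log2(FPKM + 1) to 2.79.

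Abcb11 fell against 5C without GSK429286A (-2.58 ± 0.31, adjusted p = 2.2e-05) and without forskolin (-1.88 ± 0.30, adjusted p = 0.0012), and both calls held in all 13 alternatives (from -2.76 to -1.25 and from -2.45 to -1.04). Abcb11 was the 1 gene of the 10 called in 5C-F. The 5C-G libraries overlapped with those of DMSO (0.03 ± 0.31, adjusted p = 0.98). Without CID755673 the difference passed the adjusted p (0.017) and fell just short of the fold (-0.95 ± 0.29), and it was called with total-count scaling (-1.12), with limma on log2(FPKM + 0.1) (-1.03) and without 5C library A (-1.14). Without ETC-1002 it was 0.05 ± 0.29 (adjusted p = 0.98), and relative to secreted plasma proteins it was 1.19 and called. Against DMSO, Abcb11 was called higher in 5C-E (2.65 ± 0.31, adjusted p = 1.7e-05) and in 5C-C (1.65 ± 0.31, adjusted p = 0.00052), where limma on log2(FPKM + 1) gave 0.59, below the fold threshold. The gene overlaps the annotated Gm13613 and Gm13614 on the other strand.

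Abcc2 (ENSMUSG00000025194, chr19:43770631-43829179), which exports conjugated organic anions, stood at 8.52 and 8.40 FPKM in DMSO, 10.7 and 9.56 in 5C, 3.4 and 2.54 in 5C-G, 3.71 and 2.85 in 5C-C, 7.42 and 6.54 in 5C-E, 12.1 and 11.8 in 5C-F and 7.69 in 5C-S. The 4 libraries of 5C-G and 5C-C lay below all others. Abcc2 fell against 5C in 5C-G (-1.64 ± 0.18, adjusted p = 8.9e-06) and in 5C-C (-1.46 ± 0.18, adjusted p = 3.4e-05). It was not called in 5C-E (-0.61 ± 0.18, adjusted p = 0.081) or 5C-F (0.34 ± 0.18, adjusted p = 0.23), nor in 5C against DMSO (0.18 ± 0.18, adjusted p = 0.67). Against DMSO it was called lower in 5C-G (-1.46 ± 0.18, adjusted p = 0.00015) and 5C-C (-1.28 ± 0.18, adjusted p = 5.0e-05). An offset for GC content and length moved the value in 5C-C to -0.59 against 5C and to -0.44 against DMSO, and that in 5C-G to -0.88 against DMSO, all below the fold threshold. Scaled to secreted plasma proteins, the difference between 5C-G and 5C was just short of it (-0.998).

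At the basolateral side, both uptake carriers were low wherever GSK429286A, CID755673 or ETC-1002 was missing. Slc10a1 (ENSMUSG00000021135, chr12:80996372-81015479), the sodium-taurocholate carrier, stood at 2.30 and 1.69 FPKM in DMSO, 3.21 and 3.14 in 5C, 0.368 and 0.373 in 5C-G, 0.0902 and 0.459 in 5C-C, 0.424 and 0.334 in 5C-E, 4.66 and 2.26 in 5C-F and 1.47 in 5C-S. The 6 libraries of 5C-G, 5C-C and 5C-E were all at 0.459 FPKM or below and the other 7 at 1.47 or above. Slc10a1 fell against 5C in 5C-G (-2.96 ± 0.56, adjusted p = 0.0012), in 5C-C (-3.29 ± 0.57, adjusted p = 0.00035) and in 5C-E (-3.13 ± 0.56, adjusted p = 0.0039). Without 5C-E library B the last was -2.97 and not called (adjusted p = 0.12), and without 5C-C library B the value in 5C-C was -4.98.

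The 2 libraries of 5C-F differed in Slc10a1 more than those of DMSO or 5C, and 5C-F was not called against 5C (0.24 ± 0.50, adjusted p = 0.81). The difference between 5C and DMSO was 0.59 ± 0.50 (adjusted p = 0.62). Against DMSO, Slc10a1 was called lower in 5C-G (-2.36 ± 0.55, adjusted p = 0.012), 5C-C (-2.69 ± 0.56, adjusted p = 0.0012) and 5C-E (-2.53 ± 0.55, adjusted p = 0.006). The call in 5C-G was lost without DMSO A (-2.16, adjusted p = 0.11) and without 5C-G B (-2.47, adjusted p = 0.11), and that in 5C-E without DMSO A, 5C-E A or 5C-E B (-2.25, -2.68 and -2.37, adjusted p from 0.052 to 0.090). The call in 5C-C held, at -4.38 without 5C-C B. Slc10a1 overlaps Srsf5, a splicing factor gene, on the other strand.

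Slco1b2 (ENSMUSG00000030236, chr6:141575179-141633546), the hepatic organic anion transporter, stood at 3.84 and 4.08 FPKM in DMSO, 14.3 and 11.9 in 5C, 2.11 and 0.633 in 5C-G, 0.657 and 0.463 in 5C-C, 2.18 and 1.29 in 5C-E, 8.03 and 4.91 in 5C-F and 5.79 in 5C-S. Both 5C libraries were above all others, and the 6 libraries of 5C-G, 5C-C and 5C-E were below both DMSO libraries. It rose from DMSO to 5C by 1.65 ± 0.37 (adjusted p = 0.010). This call was lost without DMSO A (1.62, adjusted p = 0.11), without DMSO B (1.69, adjusted p = 0.090), without 5C A (1.53, adjusted p = 0.089) and with limma on log2(FPKM + 0.1) (1.70, adjusted p = 0.069), although the direction stayed in all 13 alternatives.

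Slco1b2 fell against 5C in 5C-G (-3.17 ± 0.40, adjusted p = 3.3e-05), in 5C-C (-4.40 ± 0.43, adjusted p = 5.3e-06) and in 5C-E (-2.98 ± 0.40, adjusted p = 0.00023), and these 3 calls held in all 13 alternatives. Without 5C-G library A the value in 5C-G was -4.14. In 5C-F it was -0.91 ± 0.37 (adjusted p = 0.12), and scaled to secreted plasma proteins -1.49 and called (adjusted p = 0.011). Against DMSO it was called lower in 5C-C (-2.74 ± 0.41, adjusted p = 8.4e-05), in 5C-G (-1.52 ± 0.38, adjusted p = 0.017) and in 5C-E (-1.33 ± 0.38, adjusted p = 0.035). The last of these was lost when any of its 4 libraries was left out (from -1.73 to -1.0, adjusted p from 0.052 to 0.37), and that in 5C-G without DMSO A, DMSO B or 5C-G B (-1.60, -1.47 and -0.94, adjusted p from 0.095 to 0.20) or with only the 2 groups compared (adjusted p = 0.067). Without 5C-G A it was -2.49. Both were also lost with either limma setting and with scaling to secreted plasma proteins, at -0.43 in 5C-E and -1.03 in 5C-G, and that in 5C-E with total counts (-1.19, adjusted p = 0.086). Slco1b2 overlaps the lncRNA gene Gm67350 on the other strand.

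The 4 transporters thus changed in unequal proportion. The ratio of Abcb11 to Slc10a1 in FPKM within a library was 0.164 and 0.184 in DMSO, 0.600 and 0.792 in 5C, 1.07 and 0.769 in 5C-G, 11.5 and 2.18 in 5C-C, 5.82 and 6.98 in 5C-E, 0.127 and 0.231 in 5C-F and 1.31 in 5C-S. The 4 libraries of 5C-C and 5C-E were above all others, and those of DMSO and 5C-F were below all others. The ratio of Abcb11 to Slco1b2 exceeded 1 only in those 4 libraries, at 1.57 and 2.16 in 5C-C and 1.13 and 1.81 in 5C-E. The ratio of Abcb11 to Abcc2 was lowest in DMSO (0.0442 and 0.0371) and 5C-F (0.0490 and 0.0441). These ratios are given as a description, with no test.

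**Figure D3:**
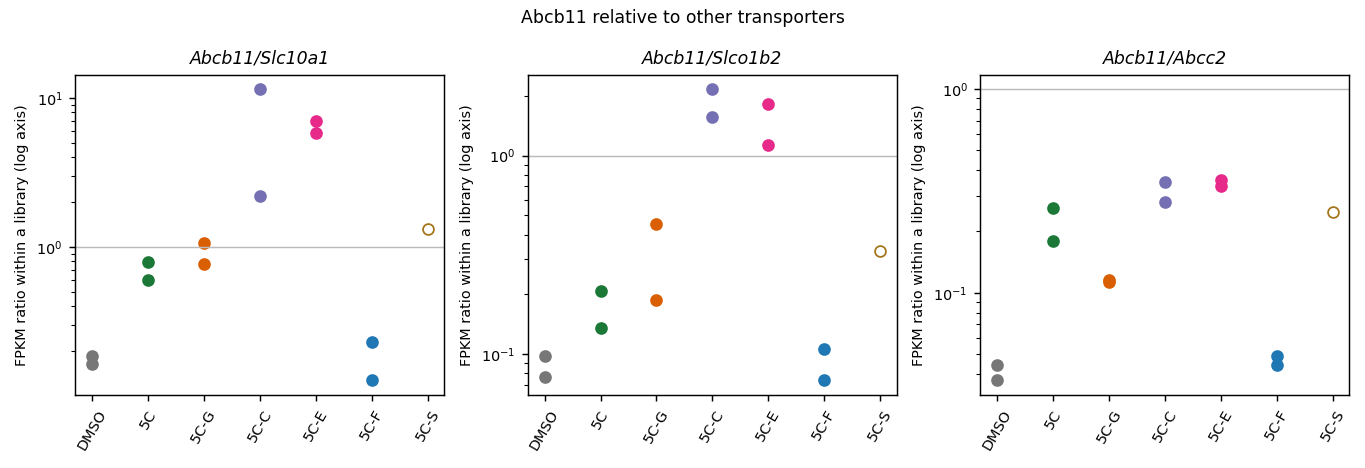
Ratio of Abcb11 to Slc10a1, to Slco1b2 and to Abcc2 in FPKM within each library, on log axes, by group; each point is a library, the open circle is the single 5C-S library and the grey line marks equal FPKM. Abcb11 exceeded Slco1b2 only in 5C-C and 5C-E, where the ratio ran from 1.13 to 2.16.

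Of 18 other measured transporters, 17 were tested. In 5C against DMSO, 1 was called higher, Slco1a4, an organic anion transporter (4.39 ± 0.37, adjusted p = 5.1e-07), and 1 lower, Slco2b1 (-1.78 ± 0.38, adjusted p = 0.007). Slco1a4 was at 0.10 and 0.162 FPKM in DMSO and between 0.550 and 3.35 in every other library. It belongs to a family of similar genes between which the counting could split reads. Against 5C, 5C-G had 5 of the 17 called lower, 5C-C had 4, 5C-E had 1 (3 by DESeq2) and 5C-F had 1. In 5C-G these included Abcb4, the phospholipid exporter of the canaliculus (-1.51 ± 0.19, adjusted p = 2.7e-05), and Atp8b1, the canalicular flippase (-1.61 ± 0.40, adjusted p = 0.0066).

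A basolateral exporter subunit was called higher in some groups. Slc51b, the beta subunit of the bile acid exporter OST and a known FXR target, was at 0.0771 and 0.271 FPKM in DMSO, between 0.597 and 1.26 in 5C, between 0.0772 and 0.395 in 5C-G, between 0.219 and 0.369 in 5C-F, between 4.06 and 4.08 in 5C-C and between 1.90 and 2.33 in 5C-E. It rose against 5C in 5C-C (2.29 ± 0.79, adjusted p = 0.032), and against DMSO in 5C-C (4.63 ± 0.92, adjusted p = 0.00087) and in 5C-E (3.45 ± 0.90, adjusted p = 0.020). It shared its 2 highest groups with Nr0b2, but in 5C-F it lay below both 5C libraries, where Nr0b2 lay above both. Abcc4, a basolateral exporter of organic anions and cyclic nucleotides, was the 1 other transporter called higher in 5C-F than in 5C (1.23 ± 0.25, adjusted p = 0.0064).

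Of 16 measured genes of the canalicular membrane and of cell junctions, all tested, 1 was called lower in 5C than in DMSO, Ceacam1, an adhesion protein of the canaliculus (-1.54 ± 0.39, adjusted p = 0.024). Against 5C, 2 were lower and 1 higher in 5C-G, 3 were lower in 5C-C and 1 was higher in 5C-F. In 5C-E, edgeR and DESeq2 each called 0 of the 16, and 2 were lower at an unadjusted p under 0.05. Tjp1, which encodes the tight junction protein ZO-1, was lower in 5C-G (-1.47 ± 0.27, adjusted p = 0.00085) and 5C-C (-1.45 ± 0.27, adjusted p = 0.00055). Cldn2, a claudin that forms paracellular pores, was lower in 5C-G (-1.71 ± 0.27, adjusted p = 0.0003) and higher in 5C-F (1.27 ± 0.27, adjusted p = 0.0077).

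**Figure D4:**
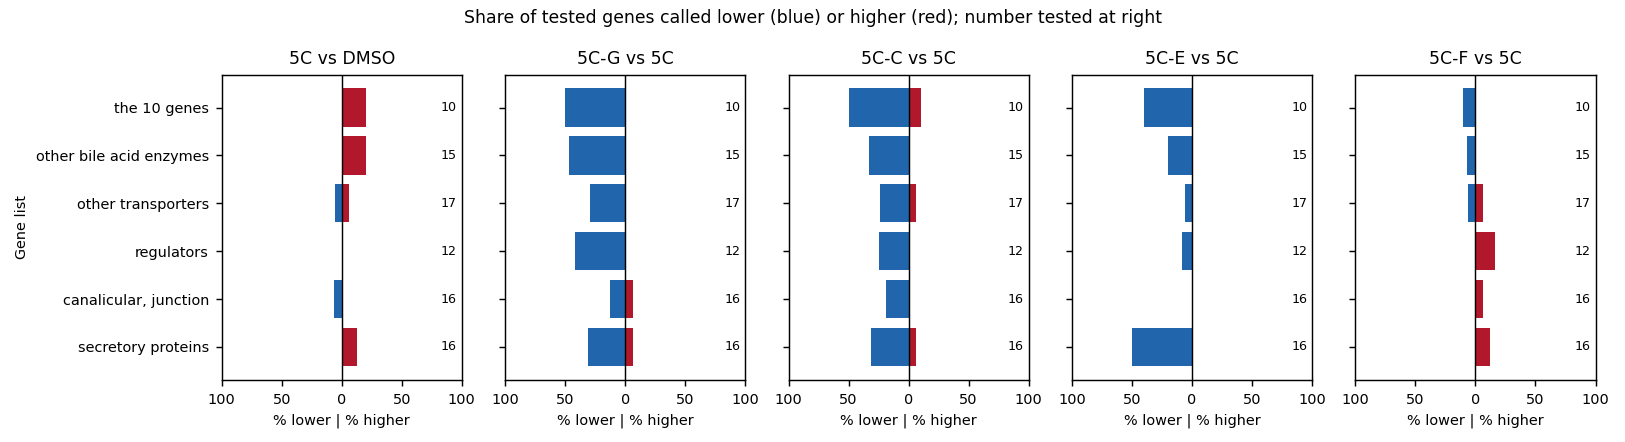
Share of tested genes called lower (blue, to the left) or higher (red, to the right) than the reference group in 5 comparisons (panels), in percent, for the 10 genes, the other lists of the pathway and a list of 16 secreted plasma proteins; the number tested is at the right. In 5C-E the secreted proteins had 8 of 16 called lower, and the junction list had 0 of 16 called.

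The single 5C-S library allowed no test. Of the 10 genes, 3 were past 2-fold from 5C and all 3 were lower, with 10.6% of all tested genes past 2-fold lower: Cyp8b1 at 0 counts (5C had 16 and 2), Slc10a1 (-1.13) and Slco1b2 (-1.19). Abcb11 was at -0.22, Abcc2 at -0.41, Slc27a5 at -0.86 and Nr0b2 at 0.99. For Slco1b2 and Slc27a5 the 5C-S value lay below both 5C libraries, and for Abcb11 it lay just under the lower of the 2, 1.92 against 1.93 FPKM.

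Against DMSO, the removal groups had between 1 and 7 of the 10 genes called, and these comparisons share the DMSO libraries. 5C-G had 3 called, all lower (Abcc2, Slc10a1 and Slco1b2), with 2.72% of all genes called lower. 5C-C had 7 called, 5 lower and 2 higher (Nr0b2 and Abcb11), with 11.7% of all genes called lower and 10.4% higher. Of these, Cyp7a1 was at least 4.74-fold lower (adjusted p = 0.031), a bound that rests on the 28 counts of DMSO A, since DMSO B had 2 counts and lay under the floor. It lost its call without DMSO A (adjusted p = 0.29), 5C-C A (0.085) or 5C-C B (0.14) by adjusted p, with either limma setting (-0.13 and -0.85) and with the GC and length offset (adjusted p = 0.052). Slc27a5 (-1.12 ± 0.23, adjusted p = 0.0012) lost its call without DMSO B (-0.99) or 5C-C B (-0.97) and with scaling to secreted plasma proteins (-0.97). 5C-E had 5 called, 3 lower and 2 higher (Abcb11 and Nr0b2), with 3.68% of all genes called lower and 2.41% higher. Among them, Slc27a5 (-1.16 ± 0.23, adjusted p = 0.0027) lost its call without DMSO B (-1.04, adjusted p = 0.052) or 5C-E A (-1.07, adjusted p = 0.052), with either limma setting (-0.87 and -0.998) and with scaling to secreted plasma proteins (-0.24, adjusted p = 0.51). Cyp7a1 in 5C-E was not called, but it was with DESeq2 (adjusted p = 0.024), with no filter on low counts (adjusted p = 0.0095) and with scaling to secreted plasma proteins (adjusted p = 0.040). 5C-F had 1 called, Nr0b2, higher, with 3.18% of all genes called higher.

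In the order of mean FPKM over the 6 groups with 2 libraries, few neighbours were called apart. For Slc10a1 and Slco1b2 the step from 5C-E up to DMSO was called (2.53 and 1.33), and the groups within 5C-C, 5C-G and 5C-E, and within DMSO, 5C and 5C-F, were not called apart from their neighbours. Groups further apart within these sets were called for Slco1b2, with 5C-E above 5C-C (1.41, adjusted p = 0.014) and 5C above DMSO (1.65, adjusted p = 0.010). For Abcb11 the order was 5C-G, DMSO, 5C-F, 5C-C, 5C and 5C-E, where the steps into 5C-C (0.93, adjusted p = 0.037) and into 5C (0.95, adjusted p = 0.017) passed the adjusted p but not the fold. For Abcc2 the step from 5C-C to 5C-E passed the adjusted p only (0.86, adjusted p = 0.0021), as did that from 5C-E to 5C-G for Cyp27a1 (0.70, adjusted p = 0.016) and that from 5C-G to DMSO for Slc27a5 (0.89, adjusted p = 0.018). Apart from those of Slc10a1 and Slco1b2, no step was called. Over all 15 pairs of these groups, in which between 1.96% and 22.1% of all tested genes were called, Slco1b2 was called in 11, Slc10a1 and Abcb11 in 9, Slc27a5 in 8, Abcc2 in 7, Nr0b2 in 6, Cyp7a1 in 4, Cyp27a1 and Nr1h4 in 3 and Cyp8b1 in 2.

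Across the 13 libraries, which share groups, Slc27a5 followed Slco1b2 (Pearson r of log2(FPKM + 1) = 0.97) and Slc10a1 (0.92), and Slc10a1 followed Slco1b2 (0.90). Abcb11 did not follow Slc10a1 (-0.02) or Slco1b2 (0.25), and Nr0b2 was negative with both (-0.40 and -0.48). Among all genes with a mean FPKM of at least 1, those most like Abcb11 were Plagl1, Rbbp8 and Slc16a9 (r from 0.96 to 0.97), those most like Abcc2 were Prox1, Apob and Abca5 (0.98 to 0.99), and those most like Nr0b2 were Pla2g6, Uhrf1 and Nrtn (0.92 to 0.95). These correlations describe 13 libraries and carry no p.

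The labelled cell type was checked with hepatocyte markers (Alb, Ttr, Apoa1, Apoh, Ahsg, Hnf4a and Tat), of which none was at 0 in any group. Their summed FPKM ran from 11365 to 12621 in DMSO, 11536 to 11664 in 5C, 6928 to 8366 in 5C-G, 5097 to 5533 in 5C-C, 3357 to 3868 in 5C-E and 18405 to 22834 in 5C-F, and was 7678 in 5C-S. Alb alone stood between 9425 and 9437 in 5C, 2122 and 2719 in 5C-E and 13341 and 18255 in 5C-F, and was the largest part of the sum in each group. Hnf4a was between 18.8 and 21.5 in 5C and 16.7 and 17.3 in 5C-E and was not called there. In 5C-G, Hnf4a was called lower than in 5C (-1.05 ± 0.18, adjusted p = 0.00045). Tat was called lower in 5C than in DMSO (-1.32 ± 0.19, adjusted p = 0.00018). Among the secreted plasma proteins, Hpx was higher in 5C-C (1368 to 1393 FPKM) than in 5C (600.1 to 674.6) and was called (1.28 ± 0.19). Called lower in that comparison were Apoa2 (-2.30), Apob (-1.84), Apoc3 (-1.59), Alb (-1.50) and Apoh (-1.40). Against 5C, 5C-G had 2 of the 7 hepatocyte markers called lower and 1 higher, 5C-C had 3 lower, 5C-E had 5 lower and 5C-F had 2 higher. The sum was lower in all 6 libraries of 5C-G, 5C-C and 5C-E, where Slc10a1, Slco1b2 and Slc27a5 were lowest, than in DMSO, 5C or 5C-F, and that of 5C-S lay within the range of 5C-G. Abcb11 was near its 5C level in 5C-E, where the sum was lowest, and low in 5C-F, where the sum was highest. The part of the marker levels in any of these results was not tested.

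Macrophage markers (Adgre1, Csf1r, Cd68, C1qa, Clec4f and Cd5l) summed to 1311 to 1369 FPKM in DMSO, 129 to 132 in 5C, 1689 to 2685 in 5C-G, 401 to 705 in 5C-C, 235 to 306 in 5C-E, 398 to 634 in 5C-F and 196 in 5C-S. They were high in DMSO and 5C-G, the groups in which Abcb11 was lowest, and 5 of 6 were called higher in 5C-G and in 5C-F than in 5C. Clec4f was at 0 in 5C-S. Sums for stellate cells and fibroblasts (7 genes) ran from 1614 to 2014 in 5C-G, above those of all other libraries, which ran from 728 to 1231 (1142 in both libraries of 5C). These genes did not move alike. In 5C-G against 5C, Acta2 and Des were called higher and Lrat was called lower (-1.89 ± 0.60, adjusted p = 0.028). Without a call, Dcn (-0.95) and Col1a2 (-0.90) were lower and Col1a1 (0.63) and Pdgfrb (0.51) were higher. Sums for cholangiocytes (7 genes) were highest in 5C-F (3180 to 3433) and DMSO (2602 to 2962) and ran from 1460 to 2439.6 in the other groups. Sums for liver endothelial cells (6 genes) ran from 77.99 to 89.4 in DMSO, 41.5 to 45.2 in 5C-G, 12.5 to 13.8 in 5C and 9.34 to 28.6 in the other groups. Lyve1 made up most of them in DMSO (66.0 to 77.3 FPKM) and 5C-G (35.4 to 41.8) and was called lower in 5C than in DMSO, as were 5 of the 6 macrophage markers, while Pecam1 and Cdh5 were at 0 in both libraries of 5C and of 5C-F. Their part in the results was not tested.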

How the data were processed

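Total RNA of cultured dHeps was sequenced by the study as paired-end reads (NEBNext Ultra kit, NovaSeq) and mapped to GRCm39; the submitters' processing notes name Subread, featureCounts and DESeq2 without versions, while neither the release of the annotation nor the use of strand is given in the sources used here. The authors deposited whole-number counts per gene, not normalized, and FPKM per gene, which equal the deposited counts divided by a gene length and a library total (1 length within 0.2% for 27140 of 27141 genes). Both tables were joined by gene symbol, and 0 columns of sample values were left unused. Gene positions are from GRCm39, promoters from RefSeq (GRCm38.p6).

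Counts of all 13 libraries were fitted with edgeR 4.0.16 in R 4.3.3 (TMM, filterByExpr by group with a minimum count of 10, group means, quasi-likelihood test). The fit kept 19884 genes (73.3%), had 6 residual degrees of freedom and a common coefficient of variation (BCV) of 0.261, and was tested on simulated data. DESeq is the program in the study's methods; here edgeR was used instead. FPKM served for levels, which can be compared between genes because they are per length. Counting bounds used a floor of 3 counts per library and cover counting error only, since the reads carry no molecular identifiers. 5C-S, with 1 library, entered the fit without a test.

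The 10 genes and all lists were chosen with earlier results of these data known. Some genes of the lists are not reported here and stay out of the lists' counts and sums. All 10 were named. Of each list, up to 4 called genes with the largest absolute log2 fold change per comparison could be named, and for each of the 10 genes the 3 genes with the highest Pearson r. Alternatives were DESeq2 1.42.0, total counts, no filter, a stricter filter (10 counts in every library), only the 2 groups compared, limma 3.58.1 on log2(FPKM + 1) or log2(FPKM + 0.1), no fold threshold, an offset for GC content and length (known for 99.5% of tested genes), scaling to 16 secreted plasma proteins and leaving out each library in turn. A call by unadjusted p under 0.05 with the same fold was chosen after seeing the data.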

Additional observations from a re-analysis of the deposited data

How the results depend on the processing

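Of 34 calls among the 10 genes over the 9 comparisons, 14 held in every alternative that tested the gene, and 1 changed sign: Cyp27a1 in 5C-E against 5C, at 0.012 with scaling to secreted plasma proteins. That scaling moved the median log2 fold change of all genes by between -0.78 (5C-F against DMSO) and 1.14 (5C-E against 5C), and total counts moved it by at most 0.15 in size. With it, 3 genes were called in 5C-G against 5C (23.5% of all genes tested), 2 in 5C-F against 5C (14.5%) and 0 in 5C-F against DMSO (26.5%), and values that had not been called changed sign. These were Nr1h4 (-0.22) and Abcc2 (-0.042) in 5C against DMSO, Cyp27a1 (0.17), Nr1h4 (0.25) and Nr0b2 (0.46) in 5C-G against 5C, Nr1h4 (0.40) and Abcc2 (0.54) in 5C-E against 5C, and Cyp27a1 (-0.14), Abcc2 (-0.22) and Slc10a1 (-0.36) in 5C-F against 5C. Against DMSO they were Cyp27a1 (0.21) and Nr1h4 (0.029) in 5C-G, Cyp27a1 (0.052), Nr1h4 (0.18) and Abcc2 (0.495) in 5C-E, and Cyp7a1 (-0.022), Cyp27a1 (-0.10), Slc27a5 (-0.46), Nr1h4 (-0.072), Abcb11 (-0.072), Abcc2 (-0.26) and Slco1b2 (-0.069) in 5C-F. These changes follow from the scaling itself, which moves the genes of a comparison alike apart from those with 0 counts. The GC and length offset gave -0.074 for Nr1h4 in 5C against DMSO and 3 called genes (6.72%) in 5C-F against DMSO. The log2 fold change of all genes followed GC content with a Spearman rho between -0.18 and 0.41 across genes, which are not independent.

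The stricter filter, which did not keep Cyp7a1, Cyp8b1, Nr0b2 or Slc10a1, left 3 called genes in 5C-C against 5C (27.2% of all genes tested), where 6 were called as reported (20.2%), 7 with DESeq2 (21.3%) or no filter (15.6%), 8 with total counts (20.8%) and 9 with limma and a pseudocount of 0.1 (21.4%). Against DMSO it left 4 for 5C-C (28.5%), 3 for 5C-E (7.64%) and none (0) for 5C-F (9.38%). With only the 2 groups, 5C-F against DMSO had 0 (9.77%). limma gave 3 in 5C-E against DMSO with a pseudocount of 1 (3.67%) and also 3 with 0.1 (5.42%), which gave 1 in 5C against DMSO (4.12%) and 2 in 5C-F against DMSO (6.7%). Without the fold threshold, 5C-F against DMSO had 3 (14.5% of all genes). With the unadjusted p, 5C-E had 7 (4.41% of all genes) and 5C-F had 2 (8.41%) against 5C. Against DMSO, further calls were gained by Slc27a5 in 5C-G with the GC and length offset (-1.04) and without 5C-G A (-1.18), by Cyp27a1 in 5C-C (-1.01), Abcb11 in 5C-F (1.01) and Slco1b2 in 5C-F (1.005) with that offset, by Nr1h4 in 5C-C without 5C-C A (-1.17) and by Cyp8b1 in 5C-F with limma and a pseudocount of 0.1 (1.85). Abcb11 in 5C-G against DMSO, at 0.03, was -0.023 with total counts, -0.020 with no filter, -0.021 with limma on log2(FPKM + 0.1), -0.012 with the stricter filter and -0.0055 with limma on log2(FPKM + 1).

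Leaving out 1 library, which assumes that the lone library varies like the other groups, gave from 1 to 2 called genes in 5C against DMSO (with 3.1% to 3.29% of all genes called), and against DMSO 1 to 4 for 5C-G (1.1% to 13.7%), 1 to 3 for 5C-E (4.04% to 4.95%), 0 to 1 for 5C-F (3.97% to 6.65%). Uncalled values ran from -1.43 to 1.35 for Cyp8b1, -0.11 to 2.37 for Nr0b2 and -0.11 to 0.12 for Nr1h4 in 5C against DMSO, from -6.22 (with 0 counts in the remaining 5C-G library) to 0.52 for Cyp8b1 and -0.74 to 0.72 for Nr0b2 in 5C-G against 5C, from -0.14 to 0.29 for Abcb11 in 5C-E against 5C, from -1.66 to 0.11 for Cyp7a1 and -0.43 to 0.70 for Slc10a1 in 5C-F against 5C, from -0.11 to 0.15 for Abcb11, -6.92 to 0.85 for Cyp7a1, -5.68 to 0.064 for Cyp8b1 (the lowest of both with 0 counts in the remaining 5C-G library) and -0.20 to 2.20 for Nr0b2 in 5C-G against DMSO, and from -0.34 to 3.46 for Cyp7a1 in 5C-F against DMSO. No paired analysis was possible because the columns carry no replicate number that can be matched to the samples. Cyp7a1 and Cyp8b1 lay near 0 counts in several groups, and the part of sequencing depth in this was not tested.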
